A study of Mus musculus with 12 samples.

Results

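The genes described here are the mouse Wnt ligands, their receptors and the secreted factors that modulate them, followed by region and by Egfr genotype in the cortex and hippocampal formation of mice at postnatal day 5. They were matched by gene symbol, in a set chosen with earlier results of these data known, and 48 of the 55357 genes in the deposited count files matched. They comprise 19 Wnt ligands, 10 Frizzled receptors, the 2 co-receptors Lrp5 and Lrp6, 4 R-spondins, the 3 R-spondin receptors Lgr4 to Lgr6, 9 secreted inhibitors (4 Sfrp genes, 4 Dkk genes and Wif1) and Axin2. The gene also known as Sfrp3 is listed in the files as Frzb, so it is counted with the other pathway genes.

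Messenger RNA was sequenced in 12 libraries from 6 animals, in 4 groups of 3. The groups were cKO caudal (T3, T6 and T80), control caudal (T4, T8 and T70), cKO rostral (the same cKO animals) and control rostral (the same control animals), where a T number was taken as 1 animal. The cKO animals are labelled Nestin-EgfrF/F, a brain-specific deletion of the epidermal growth factor receptor gene in which the Nestin promoter drives recombination in neural progenitors and the cells they give rise to. The controls are labelled both EgfrF/+ and WT, and the labels do not say whether they carry the Nestin-driven recombinase, so loss of Egfr and presence of the recombinase cannot be told apart. Sex, inferred here from the counts of Xist against those of Y-linked genes, was unequal. There were 1 female and 2 males among cKO animals and 2 females and 1 male among controls.

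In the best-known branch of Wnt signalling, a secreted Wnt ligand binds a Frizzled receptor together with Lrp5 or Lrp6, which stops the destruction of β-catenin so that it can switch on genes such as Axin2 with TCF and LEF factors. R-spondins bind Lgr4, Lgr5 or Lgr6 and raise the amount of Frizzled at the cell surface by clearing the ubiquitin ligases Znrf3 and Rnf43. Sfrp proteins and Wif1 bind the ligands themselves, while most Dkk proteins bind Lrp5 and Lrp6. In the developing forebrain, Wnt genes of the cortical hem at the medial edge of the cortex are known for their part in forming the hippocampus.

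The libraries held 43810458 (cKO caudal T3) to 87170315 (cKO rostral T6) counts. Egfr, the targeted gene, was at 5.73 to 14.7 CPM in the 6 cKO libraries and at 39.3 to 49 CPM in the 6 control libraries, where CPM is the count scaled to library size, here over all 12 libraries. Markers of cortical excitatory neurons summed to 874 CPM or more in every library, and all 5 had counts. In the rostral library of cKO animal T6, which deviated most from its group, 8.18% of counts came from mitochondrially encoded genes, against 1.85% to 3.98% in the other libraries. The cKO rostral library of T3 held 360 CPM of Ttr, a transcript of the choroid plexus, against at most 0.398 CPM in every other rostral library. On a scale over 2476 genes that differed between the control regions, with control rostral near 0 and control caudal near 1 and the Wnt genes left out, the cKO rostral libraries of T3, T6 and T80 lay at 0.859, -0.073 and 0.639, and the cKO caudal libraries of the same animals at 0.561, 1.19 and 0.801. For T3 this order goes against the labels, and the rostral library of T80 also lay nearer to control caudal than to control rostral cortex. The rostral library of T6 held 1990 CPM of the excitatory neuron markers, against 874 to 1242 CPM in the other libraries. It is therefore uncertain whether the cKO libraries hold matching tissue pieces, and comparisons that use them are between libraries as labelled. Counts of members without T6, and without T3 where they differ, stand beside each result that rests on cKO libraries.

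The promoters of the members whose values carry the results are shown first, because they are the regulatory sequence nearest to the transcripts counted. Fzd1 and Wnt2 had the smallest p among members with a matched promoter that were higher in caudal than rostral cortex of controls, and Fzd10, Dkk2 and Lgr6 were the most reduced there. Wnt11 was added after the motif search because it held both motifs. Each line gives the 250 bases before the gene start, 5′ to 3′ on the gene's strand, from RefSeq on GRCm38.p6, which is another build than the GRCm39 of the count files. Capitals mark a TATA box (TATAAA or its reverse complement TTTATA) and a TCF/LEF site (CTTTGAA or CTTTGAT, or TTCAAAG or ATCAAAG on the other strand).
Fzd1: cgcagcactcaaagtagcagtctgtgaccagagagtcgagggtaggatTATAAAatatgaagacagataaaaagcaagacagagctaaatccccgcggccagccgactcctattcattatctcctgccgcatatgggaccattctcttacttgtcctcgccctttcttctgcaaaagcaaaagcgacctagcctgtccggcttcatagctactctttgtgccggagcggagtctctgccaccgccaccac
Wnt2: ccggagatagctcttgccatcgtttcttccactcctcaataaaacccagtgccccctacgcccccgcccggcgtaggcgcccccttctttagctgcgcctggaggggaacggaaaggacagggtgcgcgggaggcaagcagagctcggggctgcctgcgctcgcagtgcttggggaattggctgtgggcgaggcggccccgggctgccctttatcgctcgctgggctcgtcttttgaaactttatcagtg
Wnt11: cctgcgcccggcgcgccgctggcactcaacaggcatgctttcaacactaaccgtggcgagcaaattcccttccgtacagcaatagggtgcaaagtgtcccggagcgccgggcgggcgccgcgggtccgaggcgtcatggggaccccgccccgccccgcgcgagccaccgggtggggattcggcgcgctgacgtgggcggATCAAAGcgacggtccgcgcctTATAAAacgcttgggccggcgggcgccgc
Fzd10: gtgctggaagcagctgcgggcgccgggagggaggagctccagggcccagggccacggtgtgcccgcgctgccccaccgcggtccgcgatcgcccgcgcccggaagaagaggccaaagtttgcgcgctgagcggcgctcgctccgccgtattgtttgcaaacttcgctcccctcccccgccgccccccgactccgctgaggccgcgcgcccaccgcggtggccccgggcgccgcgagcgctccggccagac
Lgr6: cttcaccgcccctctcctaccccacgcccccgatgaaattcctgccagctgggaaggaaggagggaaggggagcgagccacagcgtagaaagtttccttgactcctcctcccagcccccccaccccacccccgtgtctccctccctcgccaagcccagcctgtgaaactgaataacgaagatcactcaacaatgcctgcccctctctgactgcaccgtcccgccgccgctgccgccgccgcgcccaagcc
Dkk2: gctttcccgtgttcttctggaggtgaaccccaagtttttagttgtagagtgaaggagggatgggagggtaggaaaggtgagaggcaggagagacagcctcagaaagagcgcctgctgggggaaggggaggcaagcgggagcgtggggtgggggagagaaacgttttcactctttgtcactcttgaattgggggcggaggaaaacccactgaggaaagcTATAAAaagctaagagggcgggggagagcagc
These lie at chr5:4758217-4758466 (minus strand) for Fzd1, chr6:18030446-18030695 (minus strand) for Wnt2, chr7:98834862-98835111 (plus strand) for Wnt11, chr5:128600856-128601105 (plus strand) for Fzd10, chr1:135105277-135105526 (minus strand) for Lgr6 and chr3:132085042-132085291 (plus strand) for Dkk2.

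The Wnt11 stretch, the first of 2 promoters matched to this gene, holds TATAAA beginning 29 bases before that start and a TCF/LEF site 51 bases before it. The other Wnt11 promoter, not printed, held neither motif. The TATA box of Dkk2 begins 32 bases before its start and that of Fzd1 202 bases before it. No match to these letters lay in the windows of Wnt2, Fzd10 and Lgr6, which draws nothing about any factor. Of the 48 members, 31 had a promoter in the table, with 34 promoters in all. A TCF/LEF site was present in 3 of the 34 (8.82%), against 7.48% of all 32851 promoters of the same length. These were the promoter of Dkk1, the first of Wnt11 and the third of Wnt5b. The letters of a TATA box were present in 5 (14.7%, in Dkk1, Dkk2, Fzd1, Wif1 and Wnt11), against 12.4% of all promoters. The homeodomain motif TAATTA, which is its own reverse complement, was present in 1 (2.94%, Wnt8b), against 4.84% of all promoters. The ratio of observed to expected CpG varied among the 34 member promoters, between 0.231 (Wnt5b) and 1.18 (Fzd9 and Wnt11), with a median of 0.765, against 0.374 over all promoters, given as a description with no test. Motifs were chosen after a first search of the promoters.

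Levels between genes were compared per kilobase of exon, as mean CPM per kb over the 12 libraries. The most abundant member was Dkk3, a divergent Dickkopf protein, at 31.8 ± 3.79 CPM per kb (SD over 12 libraries). Next came Fzd3, a Frizzled receptor known for guiding axon tracts, at 22.3 ± 2.52, the ligand Wnt7b at 11.5 ± 2.81 and the inhibitor Sfrp1 at 11.1 ± 1.98 CPM per kb, and the ranges of the last 2 overlapped. A further 20 members lay between 1 and 10 CPM per kb, 14 between 0.1 and 1, and 10 under 0.1.

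The classes had different leaders. Among ligands, Wnt7b was followed by Wnt7a (4.09 ± 1 CPM per kb), Wnt4 (3.21 ± 0.988) and Wnt5a (2.4 ± 0.807). Wnt7a and Wnt7b are made by neural progenitors and are known for acting on brain endothelium. Among Frizzled receptors, Fzd1 (3.95 ± 1.61 CPM per kb), Fzd6 (3.61 ± 0.663) and Fzd9 (3.49 ± 0.694) came after Fzd3 and did not differ beyond their spread. Lrp6 (4.4 ± 0.432 CPM per kb) was above Lrp5 (1.58 ± 0.31) in every library, and Lgr4 (4.39 ± 0.664) was above Lgr6 (1.05 ± 0.297) and Lgr5 (0.105 ± 0.0195). Rspo2 (3.74 ± 1.32 CPM per kb) and Rspo3 (2.67 ± 0.729) were the leading R-spondins, with overlapping ranges. Axin2, a gene that canonical signalling switches on and that feeds back on it, was at 4.01 ± 0.708 CPM per kb.

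The 10 members under 0.1 CPM per kb were Wnt8b, Wnt10a, Wnt10b, Dkk1, Wnt9b, Rspo4, Wnt3a, Wnt1, Dkk4 and Wnt8a. Over all 12 libraries together, Wnt8a had 1.5 counts, Dkk4 2, Wnt1 4.5 and Wnt3a 15, the decimals coming from fractional counts. Wnt8a and Dkk4 were under the 3 counts (0.00375 CPM over the 12 libraries together) that a count of 0 allows, and none of these 4 passed the filter on low counts in any comparison. For 8 members exon bases are shared with a gene on the opposite strand (Axin2, Fzd5, Fzd6, Rspo3, Sfrp2, Wnt11, Wnt5a and Wnt7b), and without a stated strand setting the reads of such a pair cannot be assigned with certainty; the overlapping genes were at 0 to 0.977 CPM.

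**Figure D1:**
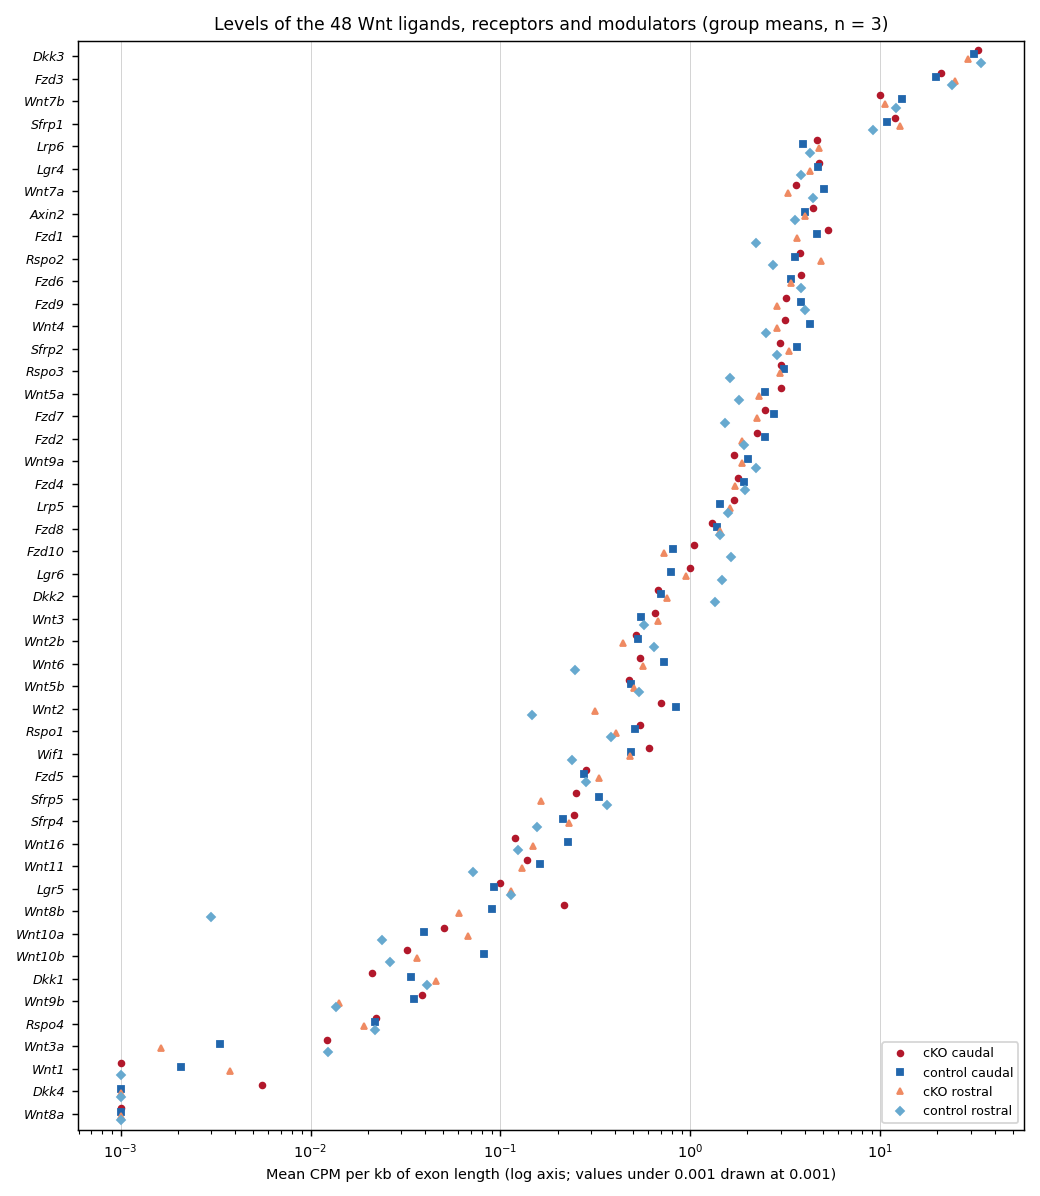
Mean CPM per kb of exon (log axis) of the 48 members, ordered by their mean over 12 libraries, with 1 symbol for each of the 4 groups (n = 3 each). Dkk3 and Fzd3 lead at 31.8 and 22.3 CPM per kb, most members have their 4 group means close together, and Wnt8b shows the widest gap, with control rostral at 0.003 CPM per kb.

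The comparison of control caudal with control rostral cortex asks how the members are laid out along the tissue in animals with Egfr. Caudal cortex had more of 7 ligands (Wnt2, Wnt4, Wnt5a, Wnt6, Wnt10b, Wnt11 and Wnt16), of the receptors Fzd1 and Fzd7, of Rspo3 and Lgr4 and of the inhibitor Wif1. It had less of the receptors Fzd3, Fzd10 and Lgr6 and of the inhibitor Dkk2. Of 40 members tested, 16 passed (40%), against 12.2% of all 20461 genes tested, by edgeR's quasi-likelihood test at a Benjamini-Hochberg adjusted p of 0.05. By direction, 12 were higher in caudal cortex (30%, against 6.3% of all genes) and 4 lower (10%, against 5.88%). The median log2 fold change was 0.19 over the tested members and 0.00 over all genes. The 3 control libraries of each region did not overlap for 21 members (52.5%, against 31.3% of all genes), and 21 also had an unadjusted p under 0.05 (52.5%, against 25.8%). The members were chosen with earlier results of these data known, so these shares are not independent evidence. In bulk tissue, more cells of a type and more RNA per cell cannot be told apart, and a member enters the test more easily if it is high in 1 region.

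Among the ligands, Wnt2 (chr6:17988939-18030584, GRCm39, as are all gene positions from the count files) showed the largest difference. It was at 2.14, 1.95 and 1.58 CPM in control caudal libraries of T4, T8 and T70, against 0.475, 0.244 and 0.273 CPM in the control rostral libraries. Every caudal library was above every rostral one by a wide margin, with a log2 fold change of 2.53 (SE 0.26, edgeR adjusted p = 0.000183). Wnt4 was at 20.2, 16.6 and 17 CPM in control caudal and 11.2, 9.07 and 11.2 CPM in control rostral cortex, without overlap (log2 0.77, SE 0.11, edgeR adjusted p = 0.00111). The low-level ligands moved the same way: Wnt10b (log2 1.67, SE 0.44, adjusted p = 0.0328), Wnt6 (1.56, SE 0.38, 0.0311), Wnt11 (1.15, SE 0.29, 0.0276) and Wnt16 (0.86, SE 0.20, 0.0182) all rose in caudal cortex by the edgeR test. Wnt10b rested on 32, 12.5 and 18.5 counts in control caudal and 5.5, 4.5 and 6.5 counts in control rostral libraries. Wnt5a rose by 0.45 (SE 0.12, edgeR adjusted p = 0.0432). In contrast to these 7, the abundant ligands Wnt7a and Wnt7b did not pass, with log2 fold changes of 0.20 (SE 0.11, edgeR adjusted p = 0.294) and 0.12 (SE 0.08, adjusted p = 0.378).

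Wnt8b, a marker of the medial cortical wall and hippocampal primordium, was too low to enter the main edgeR test. It was called higher in caudal cortex by DESeq2 (log2 4.84, adjusted p = 0.00122) and by edgeR with no filter on low counts (4.61, 7.11e-09). It was also called by edgeR without T4 (4.52, 0.00819), but not in a single edgeR fit over all 12 libraries. It had 11.5, 34.5 and 19 counts in control caudal and 0, 1 and 1 counts in control rostral libraries, so its signal lay almost wholly in caudal tissue.

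The receptors split in direction. Fzd1 (chr5:4803839-4808035) was at 20.7, 19.4 and 18.6 CPM in control caudal and 10.2, 7.86 and 9.86 CPM in control rostral libraries, a log2 fold change of 1.07 (SE 0.10, edgeR adjusted p = 9.87e-05). Its 2 sets of libraries were far apart and tight within themselves. Fzd7 rose by 0.85 (SE 0.17, edgeR adjusted p = 0.0149). Fzd10 (chr5:128677908-128681157) went the other way, with 2.71, 2.65 and 2.55 CPM in control caudal against 5.74, 5.59 and 4.52 CPM in control rostral libraries (log2 -1.01, SE 0.13, edgeR adjusted p = 0.000595). Fzd3, the most abundant receptor, was slightly lower in caudal cortex (log2 -0.28, SE 0.05, edgeR adjusted p = 0.00751). The other 6 Frizzled genes did not pass, among them Fzd2 at 0.37 (SE 0.12, edgeR adjusted p = 0.0833), nor did Lrp5 and Lrp6.

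The R-spondin arm also split. Rspo3 (chr10:29328412-29411863) was at 9.08, 9.72 and 9.98 CPM in control caudal and 4.75, 4.86 and 5.36 CPM in control rostral libraries (log2 0.94, SE 0.09, edgeR adjusted p = 0.000127). Of its receptors, Lgr4 was higher in caudal cortex (log2 0.29, SE 0.06, edgeR adjusted p = 0.015) and Lgr6 (chr1:134911039-135033014) was lower. Lgr6 was at 4.9, 6 and 5.33 CPM in control caudal and 10.3, 10.8 and 9.17 CPM in control rostral libraries (log2 -0.90, SE 0.10, edgeR adjusted p = 0.000387). Lgr5, the third receptor, did not pass (log2 -0.31, SE 0.19, edgeR adjusted p = 0.351). None of the 3 called genes overlapped between the control regions.

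The secreted inhibitors were mixed. Dkk2 (chr3:131791053-131886065), a Dickkopf protein that binds Lrp6, was at 2.77, 2.3 and 2.74 CPM in control caudal and 3.73, 4.75 and 6.56 CPM in control rostral libraries (log2 -0.95, SE 0.19, edgeR adjusted p = 0.011). Wif1, which binds Wnt proteins outside the cell, was at 0.976, 0.981 and 1.6 CPM in control caudal against 0.749, 0.504 and 0.481 CPM in control rostral libraries (log2 1.03, SE 0.27, edgeR adjusted p = 0.0313). The other tested inhibitors (Dkk3, Sfrp1, Sfrp2, Sfrp4 and Sfrp5) did not pass. Axin2 was at 24.5, 20.2 and 22.1 CPM in control caudal and 20.1, 19.9 and 18.7 CPM in control rostral libraries, and did not pass (log2 0.18, SE 0.08, edgeR adjusted p = 0.168).

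**Figure D2:**
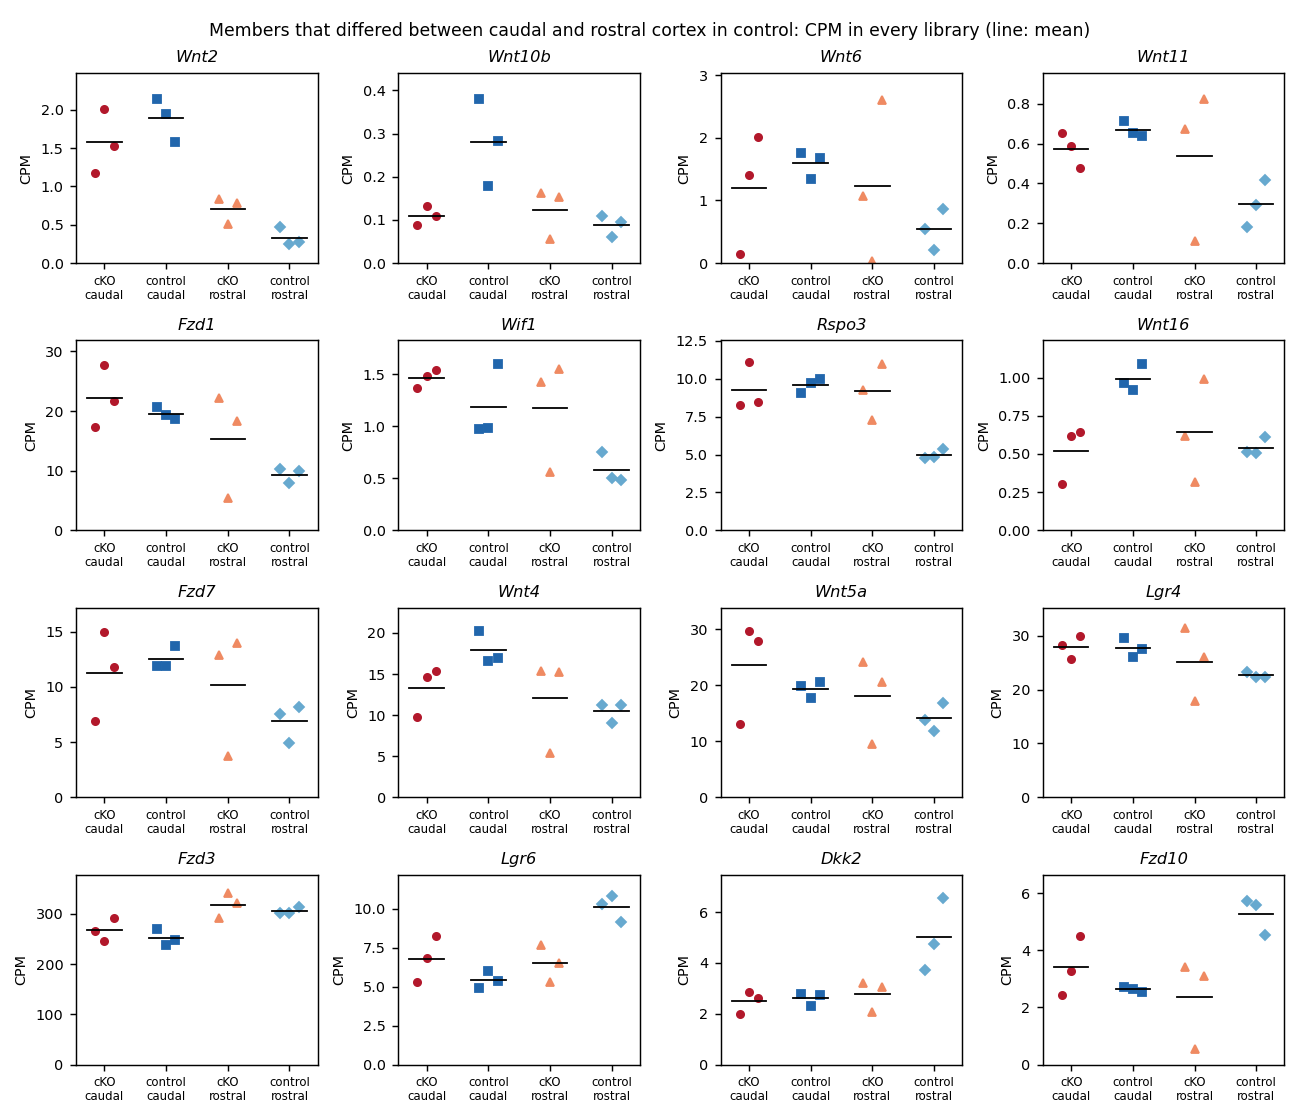
CPM in every library (points) and group mean (line) for the 16 members called between control caudal and control rostral cortex, in order of log2 fold change; each panel has its own axis from 0. In the controls the regions are apart in every panel, while the cKO groups overlap in every panel but that of Wnt2.

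The fit with the animal as a block called 20 members, the 16 above with Fzd2 (log2 0.36, edgeR adjusted p = 0.0198), Rspo2 (0.40, 0.0474), Sfrp1 (0.24, 0.0302) and Sfrp2 (0.35, 0.0254), all higher in caudal cortex. Over all genes that fit called 3144 of 20461. With a single control animal left out, 10 members were called without T4, 8 without T8 and 12 without T70. The counts over all genes were 1690 of 20582, 1079 of 20571 and 1487 of 20674. Wnt2, Wnt4, Fzd1, Rspo3, Fzd10 and Lgr6 passed with each animal left out. Wnt10b (edgeR adjusted p of 0.0914 to 0.151), Wnt16 (0.0685 to 0.13) and Lgr4 passed in none of these, and the other 7 in 1 or 2 of them. In a single edgeR fit over all 12 libraries, where all groups share an estimate of the spread, Wnt2 and Rspo3 passed and the other 14 did not, Wnt4, Fzd1, Fzd10 and Lgr6 among them.

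Markers of other tissue in the pieces moved with region in the controls too. All 6 choroid plexus markers were above 0 on the log2 scale and 4 passed, all 5 hippocampal markers were above 0 and 3 passed, and all 4 markers of cortical hem and Cajal-Retzius cells were above 0 and 3 passed. The summed choroid plexus markers were at 180, 8.26 and 210 CPM in control caudal libraries of T4, T8 and T70 and at 2.6 to 3.86 CPM in control rostral libraries. The summed hippocampal markers were at 300, 395 and 345 CPM in control caudal and 216 to 243 CPM in control rostral libraries. The 6 meningeal fibroblast markers summed to 358 to 439 CPM in control caudal and 133 to 309 CPM in control rostral libraries, all 6 above 0 and none passing. In the control caudal library of T8, which held the least choroid plexus signal of its group, Wnt8b was the highest of its group (0.505 CPM). Of the members called higher in caudal cortex, Wnt2, Wnt11, Fzd1, Rspo3 and Wif1 lay between the other 2 libraries of the group. Wnt4 (16.6 CPM, against 20.2 and 17), Wnt5a (17.7, against 19.8 and 20.6), Wnt6 (1.35, against 1.76 and 1.67), Wnt10b, Wnt16 and Lgr4 were lowest of the group in T8. Fzd7 was at 11.9 CPM in T4 and T8 and 13.7 CPM in T70. That is 1 library and 1 tissue, and the part of tissue composition in the members' regional differences was not tested.

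Other genes of the Wnt pathway were taken as a list of 55, also chosen with earlier results of these data known. Of the 54 tested, 13 passed (24.1%, against 12.2% of all genes) for the same comparison. The 5 that rose in caudal cortex were Sostdc1, Draxin, Ror1, Nkd2 and Celsr1, and the 8 that fell were Frzb, Kremen1, Znrf3, Dvl3, Apc, Gsk3b, Celsr3 and Prickle1. The 3 with the smallest p were Prickle1, a planar polarity protein (log2 -0.59, SE 0.05, edgeR adjusted p = 6.28e-05), Draxin, an axon repellent that also blocks Wnt signalling (0.73, SE 0.07, adjusted p = 0.000193), and Frzb, a soluble Frizzled-like inhibitor (-1.02, SE 0.16, adjusted p = 0.00434). None of the 12 genes listed for the nucleus and transcriptional targets passed (0%, against 12.2% of all genes), and with so few genes nothing is drawn from this.

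Between the libraries labelled caudal and rostral in cKO animals, no member passed the threshold. The T3 libraries lie on the regional scale in an order against their labels, and the part of this in the count was not tested. Of 41 members tested, 0 were called by the edgeR test, as were 0 of 20944 genes (0%). At an unadjusted p under 0.05, the count was 1 member (2.44%, against 1.66% of all genes), and DESeq2 and limma voom also called 0 members, as did edgeR without T3, without T6 and without the rostral library of either alone. That member was Wnt2, at 1.18, 2.01 and 1.53 CPM in cKO caudal libraries of T3, T6 and T80 against 0.837, 0.508 and 0.78 CPM in cKO rostral libraries. It was the only member whose regions did not overlap in cKO (2.44%, against 5.72% of all genes, of which 2.55% were higher and 3.17% lower in caudal cortex), and its log2 fold change of 1.15 (SE 0.32) had an edgeR adjusted p of 1.

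The next members by unadjusted p were also short of the threshold. Fzd3 had a log2 fold change of -0.24 (SE 0.12, edgeR adjusted p = 1), close to its value in controls. Wnt9b was at 1.43 (SE 0.79), Wnt8b at 1.81 (SE 1.17) and Rspo1 at 0.43 (SE 0.33), all with an edgeR adjusted p of 1. For Wnt8b, the cKO caudal libraries held 17, 75 and 57 counts, against 45, 2 and 0 counts in the cKO rostral libraries of T3, T6 and T80. The cKO rostral library of T3, the one with choroid plexus signal, therefore held nearly all of the rostral Wnt8b counts. Without that library alone, the log2 fold change was 5.54 for Wnt8b (SE 0.95, edgeR adjusted p = 0.766), 2.93 for Wnt9b (SE 0.79, 0.918) and 0.64 for Rspo1 (SE 0.37, 0.957). Without animal T6 it was 0.91 for Wnt8b (SE 1.53, edgeR adjusted p = 0.97), 0.92 for Wnt9b (SE 0.83, 0.965) and 0.08 for Rspo1 (SE 0.33, 0.992). Without animal T80 it was 1.23 for Wnt8b (SE 1.19) and 0.80 for Wnt9b (SE 1.04), each with an edgeR adjusted p of 1.

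Of the 16 members called in controls, 15 were tested in cKO, and 11 of them (73.3%) had the same sign there, against 81.7% of all genes called in controls. Their median log2 fold change, signed by the direction in controls, was 0.14 in cKO and 0.94 in control, against 0.18 and 0.51 for all such genes. The value was smaller in cKO for 15 of 15 members, against 91% of all such genes. Since these genes were chosen for their difference in controls, a smaller value elsewhere is read as no result.

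The animals within cKO did not move together. The caudal minus rostral difference on the log2(CPM + 0.5) scale for Fzd1 was -0.34, 2.27 and 0.23 in cKO T3, T6 and T80, against 0.99, 1.25 and 0.88 in control T4, T8 and T70. For Wnt4 it was -0.63, 1.36 and 0.01 in cKO animals, against 0.82, 0.84 and 0.58 in controls, and for Fzd7 -0.85, 1.88 and -0.24 against 0.63, 1.18 and 0.70. T6 had the highest value of the cKO animals and T3 the lowest for each of these. For Rspo3 the differences were -0.16, 0.58 and -0.36 in cKO animals, against 0.87, 0.93 and 0.84 in controls, with no overlap. For Lgr6 they were -0.49, 0.33 and 0.32 in cKO animals, against -0.999 to -0.73 in controls, again with no overlap. These members were called in controls, which favours control values that are large and close together, so spread and overlap are description only.

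**Figure D3:**
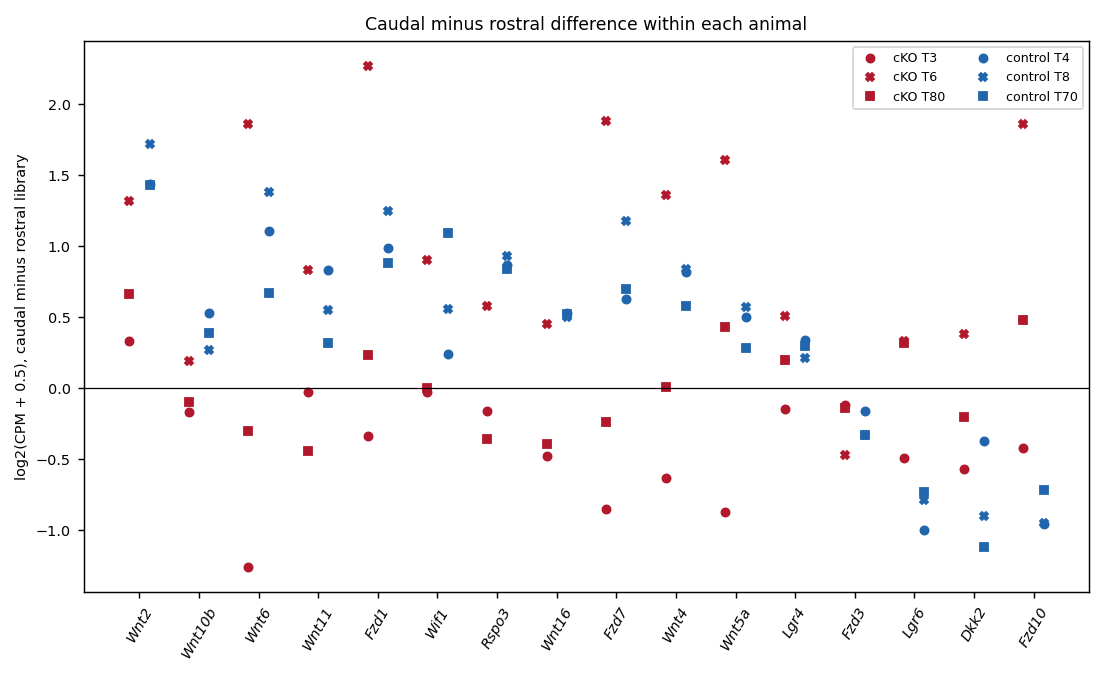
Caudal minus rostral difference in log2(CPM + 0.5) within each of the 6 animals, for the 16 members called in controls; symbols tell the animals of a genotype apart. Control animals lie close together for most members, whereas cKO animals range from -0.34 to 2.27 for Fzd1 and from -1.26 to 1.86 for Wnt6. The members were chosen for their difference in controls, which favours control animals that lie close together.

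Whether the regional difference itself depended on genotype was tested by the interaction over all 12 libraries. Of 42 members tested, 0 passed by edgeR, as did 0 of 21599 genes (0%), while 6 members (14.3%, against 3.55% of all genes) had an unadjusted p under 0.05. The per-animal differences of cKO and control did not overlap for 9 members (21.4%, against 10.2% of all genes). The members with the smallest p were Rspo3 (log2 -0.92, SE 0.23), Lgr6 (0.97, SE 0.25), Wnt2 (-1.36, SE 0.43), Wnt10b (-1.80, SE 0.67) and Dkk2 (0.79, SE 0.33), each with an edgeR adjusted p of 1. A negative value here means that the caudal excess was smaller in cKO than in control. Without animal T6, 3 of 42 members passed, against 475 of 21907 genes. They were Rspo3 (log2 -1.21, edgeR adjusted p = 0.00302), Fzd1 (-1.11, 0.0126) and Wnt2 (-1.76, 0.0404). Without the rostral library of T6 alone, 0 members and 35 of 22056 genes passed. DESeq2 called 0 members and 14 of 23478 genes. Limma voom with library quality weights called 137 of 21599 genes, among them the members Rspo3 (log2 -1.15, adjusted p = 0.0105) and Lgr6 (0.99, 0.0474). Of the other pathway genes, 0 of 54 passed, and those with the smallest p were Draxin, Frzb and Prickle1.

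The next question was how the members differ between cKO and control in the rostral piece. No member passed, and none of the 20599 genes did (0%). Egfr, the deleted gene, did not pass either (log2 -2.14, SE 0.25, edgeR adjusted p = 0.186), although its groups did not overlap. A count of 0 is therefore not evidence that the members were unchanged. Of the 38 members tested, 7 had an unadjusted p under 0.05 (18.4%, against 9.49% of all genes). DESeq2 called 2 members, limma voom with library quality weights called 4, and a single edgeR fit over all 12 libraries called 1, with Rspo3 called by all 3. Rspo3 was at 9.29, 7.25 and 11 CPM in cKO rostral libraries of T3, T6 and T80, against 4.75, 4.86 and 5.36 CPM in control rostral libraries. The groups were well apart, and the log2 fold change was 0.89 (SE 0.19, edgeR adjusted p = 0.318; DESeq2 adjusted p = 0.00287). The cKO rostral values overlapped those of caudal cortex, at 8.26 to 11.1 CPM in cKO and 9.08 to 9.98 CPM in control.

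Lgr6, a receptor for Rspo3, was at 7.68, 5.32 and 6.53 CPM in cKO rostral and 10.3, 10.8 and 9.17 CPM in control rostral libraries (log2 -0.63, SE 0.17, edgeR adjusted p = 0.394; DESeq2 adjusted p = 0.0483). Dkk2 was at 3.23, 2.07 and 3.06 CPM in cKO rostral and 3.73, 4.75 and 6.56 CPM in control rostral libraries (log2 -0.84, SE 0.27, edgeR adjusted p = 0.445). Neither overlapped between genotypes in rostral cortex. Sfrp1, which binds Wnt proteins, was at 63.7, 47.3 and 56.1 CPM in cKO rostral and 34.7, 37.8 and 47.5 CPM in control rostral libraries (log2 0.48, SE 0.16, edgeR adjusted p = 0.447), overlapping by 1 library. Wnt2 had a log2 fold change of 1.11 (SE 0.37, edgeR adjusted p = 0.454).

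Over all tested members, 9 did not overlap between genotypes in rostral cortex (23.7%, against 19.7% of all genes), with 4 higher in cKO (10.5%, against 9.05%; Lrp6, Rspo2, Rspo3 and Wnt2) and 5 lower (13.2%, against 10.7%; Dkk2, Fzd9, Fzd10, Lgr6 and Wnt2b). The median log2 fold change was 0.12 over the members and 0.04 over all genes.

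Markers of other cells and tissue also differed between genotypes in rostral cortex. The 5 oligodendrocyte lineage markers summed to 252 to 354 CPM in cKO rostral and 434 to 456 CPM in control rostral libraries, and all 5 were below 0 on the log2 scale. The 5 striatal markers summed to 45.9 to 54.7 CPM in cKO rostral and 71.6 to 163 CPM in control rostral libraries, again all 5 below 0. The 4 markers of cortical hem and Cajal-Retzius cells summed to 325 to 410 CPM in cKO rostral and 272 to 312 CPM in control rostral libraries, with the 3 that were tested above 0. Most of that sum was Reln, at 321 to 400 CPM in cKO and 268 to 309 CPM in control. Trp73 (3.6 to 9.95 against 2.78 to 4.03 CPM) and Lhx1 (0.453 to 1.69 against 0.329 to 0.473 CPM) overlapped between genotypes. Lmx1a, at a low level, did not (0.055 to 0.985 against 0.016 to 0.0365 CPM). None of these sums overlapped between genotypes, no single marker of these lists passed, and their part in the values of Rspo3, Lgr6 and Dkk2 was not tested.

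Without T6, 5 of 39 members passed by edgeR, against 1058 of 21118 genes (693 higher and 365 lower in cKO). The 5 were all higher in cKO: Rspo3 (log2 1.03, adjusted p = 0.00871), Fzd1 (1.13, 0.00909), Wif1 (1.37, 0.0295), Wnt4 (0.56, 0.0372) and Fzd7 (0.97, 0.0458). All 5 were also among the members called higher in caudal than rostral cortex of controls. With T6 in, Fzd1 ran from 5.36 CPM in cKO rostral T6 to 22.1 CPM in cKO rostral T3, against 7.86 to 10.2 CPM in control rostral libraries, so T6 lay below every control and the other 2 above. The place of each cKO rostral library on the regional scale is given at the outset. Those of T3 and T80 lay at 0.859 and 0.639, nearer to control caudal than to control rostral cortex. The part of this in these values was not tested.

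The comparison in caudal cortex gave no member past the threshold either, where 17 of 20705 genes passed (0.0821%, with 0.0145% higher and 0.0676% lower in cKO). Egfr was again not among the genes that passed (log2 -2.05, SE 0.31, edgeR adjusted p = 0.102). Of 41 members tested, 7 had an unadjusted p under 0.05 (17.1%, against 14.5% of all genes). Of these, Lrp6 and Wnt8b were higher in cKO (4.88%, against 7.65% of all genes) and 5 ligands were lower (12.2%, against 6.86%). DESeq2 called 2 of 39 members, against 468 of 19262 genes, and limma voom 0 of 41, against 178 of 20705. Those 2 were the abundant ligands Wnt7a and Wnt7b. Wnt7a (chr6:91340963-91388345) was at 11.8, 11.4 and 11.3 CPM in cKO caudal libraries of T3, T6 and T80, against 17.9, 15 and 15.2 CPM in control caudal libraries of T4, T8 and T70. The cKO libraries were within 0.5 CPM of each other and all below the controls (log2 -0.47, SE 0.10, edgeR adjusted p = 0.143; DESeq2 adjusted p = 0.00434). Wnt7b (chr15:85419638-85466674) was at 49.9, 51.5 and 45.9 CPM in cKO caudal and 71.1, 65.4 and 56.6 CPM in control caudal libraries (log2 -0.38, SE 0.10, edgeR adjusted p = 0.183; DESeq2 adjusted p = 0.0303). In rostral cortex Wnt7a was at -0.42 (SE 0.34) and Wnt7b at -0.18 (SE 0.35), with wider errors.

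Of the other members named by p in caudal cortex, Wnt10b had a log2 fold change of -1.33 (SE 0.40, edgeR adjusted p = 0.244), Wnt16 of -0.89 (SE 0.28, 0.252) and Lrp6 of 0.26 (SE 0.09, 0.266). Groups did not overlap for 5 members, a share below the background (12.2%, against 23% of all genes). These were the ligands Wnt4, Wnt7a, Wnt7b, Wnt10b and Wnt16, all 5 lower in cKO (12.2%, against 12.6% of all genes in that direction), while 0 members lay wholly above the controls (0%, against 10.4%). Without T3, the cKO caudal library with the fewest counts and the lowest meningeal markers of its group, 1 member passed, Wnt5a (log2 0.58, edgeR adjusted p = 0.0419). Over all genes 99 of 21123 passed in that fit. Without T6, 0 members and 162 of 21082 genes passed. The sum of the 6 meningeal markers was at 98.2, 525 and 701 CPM in cKO caudal libraries of T3, T6 and T80 and at 358 to 439 CPM in control caudal libraries. The 5 astrocyte markers, of a cell type of the deleted lineage, summed to 836 to 1232 CPM in cKO caudal and 1127 to 1220 CPM in control caudal libraries, and none of the 5 was above 0 on the log2 scale in either region. Most of that sum was Slc1a3, which overlapped between genotypes, as did Gja1. Aldh1l1 (40.1 to 51.6 against 74.7 to 85.7 CPM), Aqp4 (113 to 185 against 212 to 239) and Slc7a10 (7.52 to 9.16 against 13.4 to 16.5) lay wholly below the control caudal libraries. Slc7a10 passed on summed counts (log2 -1.30, edgeR adjusted p = 0.0305). The 5 oligodendrocyte lineage markers summed to 276 to 344 CPM in cKO caudal and 366 to 417 CPM in control caudal libraries, all 5 below 0, and Olig1 passed (log2 -0.67, edgeR adjusted p = 0.0283). The 5 hippocampal markers summed to 401 to 817 CPM in cKO caudal and 300 to 395 CPM in control caudal libraries, 4 of 5 above 0 and none passing. Neither sum overlapped between genotypes, and the part of these tissues in the members' values was not tested.

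**Figure D4:**
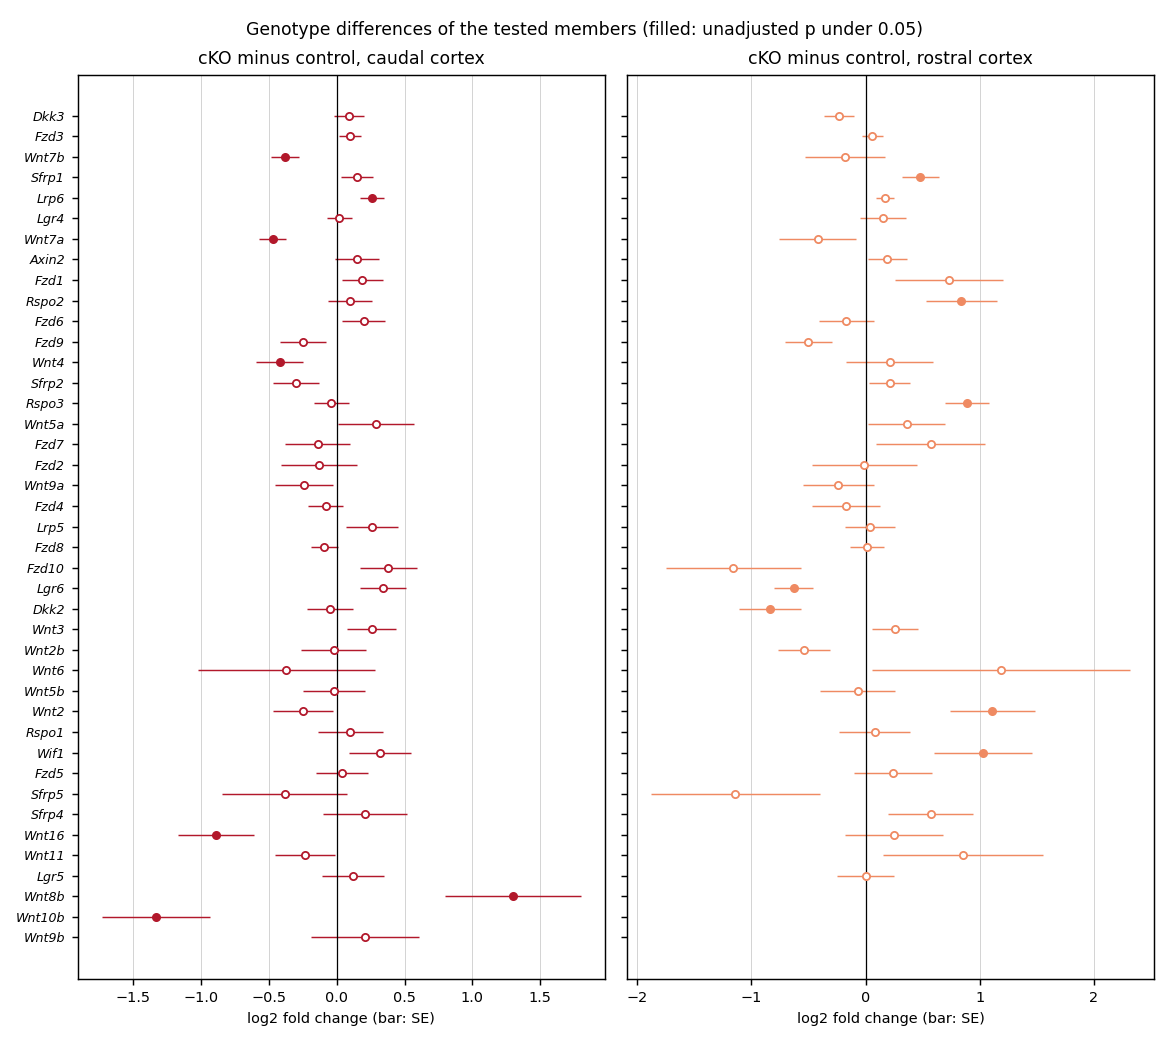
Log2 fold change of cKO over control with its SE for every tested member, in caudal cortex (left, 41 members) and rostral cortex (right, 38 members), ordered by level; filled points had an unadjusted p under 0.05. Wnt7a and Wnt7b lie left of 0 with short bars in caudal cortex, and Rspo3 lies right of 0 in rostral cortex but at -0.04 in caudal cortex; no point passed after adjustment.

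On the summed rostral and caudal counts of each animal, 0 of 43 members passed, against 41 of 22928 genes (0.179%, with 0.0829% higher and 0.096% lower in cKO). Egfr passed on these counts (log2 -2.10, SE 0.11, edgeR adjusted p = 0.0019). At an unadjusted p under 0.05 there were 11 members (25.6%, against 15.4% of all genes), 8 of them higher in cKO (18.6%, against 8.2%) and 3 lower (6.98%, against 7.17%). The groups did not overlap for 11 members (25.6%, against 25.7% of all genes). Wnt8b had the smallest p, at 0.389 to 0.564 CPM in cKO animals and 0.0714 to 0.26 CPM in controls (log2 1.51, SE 0.38, edgeR adjusted p = 0.184; DESeq2 adjusted p = 0.0191). The hippocampal and hem markers did not pass: on summed counts Prox1 had a log2 fold change of 0.94 (edgeR adjusted p = 0.0516), Zbtb20 of 0.69 (0.0824) and Neurod1 of 0.63 (0.0951), while the hippocampal markers Grik4 (-0.03) and Lct (-0.40) were below 0. All 4 hem and Cajal-Retzius markers were above 0, with Lmx1a at 1.99 (edgeR adjusted p = 0.0786), and their part in the Wnt8b value was not tested. Sfrp1 (log2 0.31, SE 0.09, edgeR adjusted p = 0.203), Rspo3 (0.30, SE 0.09, 0.217), Lrp6 (0.21, SE 0.06, 0.218) and Dkk2 (-0.49, SE 0.17, 0.265) followed. Limma voom called Fzd1 (log2 0.45, adjusted p = 0.0443), as did edgeR without T6 (0.45, 0.0389). Over all genes, limma voom called 619 of 22928, edgeR without T6 687 of 23423 and DESeq2 738 of 22684. Axin2, the feedback target, was at 22 to 24.6 CPM in cKO animals and 20 to 22.3 CPM in controls, with a log2 fold change of 0.16 (SE 0.08, edgeR adjusted p = 0.384). Of the 54 other pathway genes tested, 0 passed in any of the comparisons by genotype. Those with the smallest p on summed counts were Pygo1, a β-catenin co-factor (log2 0.28, edgeR adjusted p = 0.148), Tspan12 (-0.39, 0.155) and Dkkl1 (-0.43, 0.184).

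Some members had their lowest values in the libraries with the lowest meningeal marker sums. Wnt6 was at 0.152 CPM in cKO caudal T3 and 0.0275 CPM in cKO rostral T6, the 2 libraries with the lowest meningeal sums (98.2 and 20.4 CPM), against 0.214 CPM or more in the other 10 libraries. Fzd2 was lowest in the same 2 libraries, at 4.64 CPM in cKO caudal T3 and 2.5 CPM in cKO rostral T6. Fzd7 was at 15 CPM in cKO caudal T6 and 3.7 CPM in cKO rostral T6, where the meningeal markers summed to 525 and 20.4 CPM. In cKO caudal T80, with the highest meningeal sum (701 CPM), Fzd7 was at 11.8 CPM. For Rspo3 and Lgr6 the lowest values of all 12 libraries lay in control groups. Within each cKO group, however, both were lowest in cKO caudal T3 and cKO rostral T6. Rspo3 was at 7.25 CPM in cKO rostral T6 (9.29 and 11 in its group) and 8.26 CPM in cKO caudal T3 (11.1 and 8.44). Both values were above all 3 control rostral libraries, whose meningeal sums were 133 to 309 CPM. Lgr6 was at 5.32 CPM in both libraries, against 7.68 and 6.53 CPM in the rest of cKO rostral and 6.81 and 8.26 CPM in the rest of cKO caudal. Libraries cKO caudal T3 and cKO rostral T6 also had the lowest astrocyte sums (836 and 389 CPM, against 844 to 1232 CPM in the others). Their endothelial sums were lowest too (134 and 132 CPM, against 167 to 217 CPM), so the low values were not particular to meningeal markers. No coefficient is given, since the libraries share animals and groups, and the part of meningeal tissue or of these other cells in the values was not tested.

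**Figure D5:**
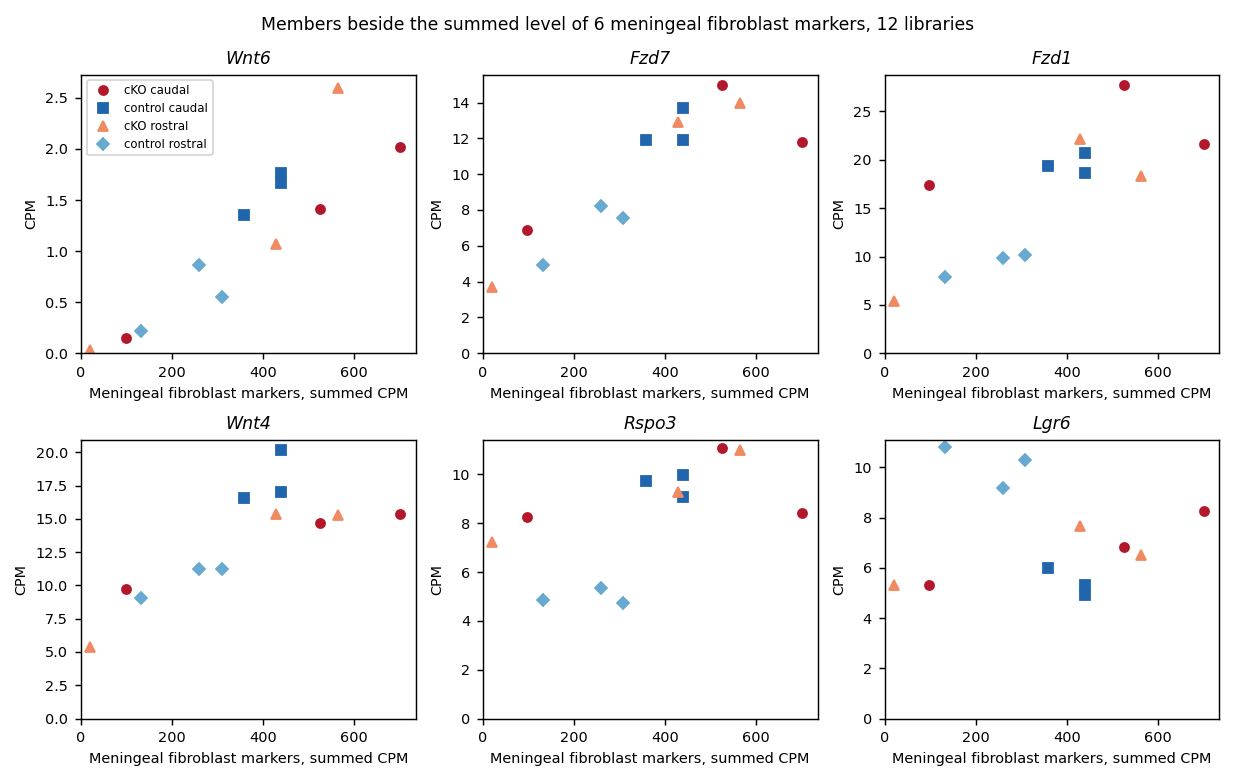
CPM of 6 members in each of the 12 libraries against the summed CPM of 6 meningeal fibroblast markers in the same library, by group. Wnt6 is lowest in the 2 libraries with the lowest marker sums (20.4 and 98.2 CPM), whereas Rspo3 is lowest in the 3 control rostral libraries (4.75 to 5.36 CPM).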

How the data were processed

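RNA-seq was done on 12 libraries, a rostral and a caudal piece from each of 6 animals. Per the labels' protocols, mRNA was captured from total RNA and made into KAPA mRNA HyperPrep libraries; per the submitters' processing notes, STAR 2.7.8a and featureCounts 2.0.3 were used on GRCm39. Neither annotation release nor strand setting is given in the sources used here. Each deposited file holds estimated counts per gene as the authors made them, of which 9.69% to 14.3% per library were fractional, and 36 members had a fractional value in at least 1 library. They were rounded to whole numbers. The tests, planned for whole counts, were kept.

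Groups came from the labels. Each comparison was fitted on all genes of its own groups with edgeR 4.0.16 in R 4.3.3 (filterByExpr, TMM scaling, robust quasi-likelihood F test, Benjamini-Hochberg adjustment over all genes tested, threshold 0.05). The SE was taken as |log2 fold change| over the root of F. Fits were made for region in each genotype, genotype in each region and on summed counts, and their interaction. The code was tested on simulated data. Printed CPM were scaled by TMM over all 12 libraries, and per-animal differences used log2(CPM + 0.5). Depth was 43810458 to 87170315 counts, and the limit for a count of 0 covers counting error only.

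The T number was taken as the animal, so it pairs rostral and caudal libraries. Deviations from group means correlated across 16030 genes at r = 0.409, 0.452 and 0.444 in control T4, T8 and T70 and at -0.0334, 0.00281 and 0.589 in cKO T3, T6 and T80. Alternatives were DESeq2 1.42.0, limma 3.58.1 voom with library quality weights, RLE and upper-quartile scaling, no filter, a filter requiring 1 CPM in at least 3 libraries, leaving out each animal, sex as a covariate, a single fit over 12 libraries, the animal as a replicate block, and single cKO rostral libraries left out.

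Members with statistics in the text are those past the threshold (the 10 largest in a direction) or, with fewer than 5, those of smallest p; Wnt5a and Lgr4, other members and values without T6 are given beside these. The members, the list of 55 pathway genes and the marker lists were chosen with earlier results of these data known. Promoters were matched by symbol to RefSeq on GRCm38.p6. Protein sequences were not used here.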

Additional observations from a re-analysis of the deposited data

How the results depend on the processing

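Counts of members past 0.05 depended on the test and on single animals. For genotype in rostral cortex (0 by edgeR) DESeq2 called 2, limma voom 4 and a single fit over all 12 libraries 1, and 0 to 5 were called with 1 animal left out, the 5 without T6. For genotype in caudal cortex (0) DESeq2 called 2, a fit with no filter on low counts 2, and 0 to 1 were called with 1 animal left out. For summed counts (0) DESeq2, limma voom and no filter called 1 each, and leaving out 1 animal gave 0 to 1. For region in control (16) a single fit over all 12 libraries called 2, the others 12 to 21, and leaving out 1 animal gave 8 to 12. For the interaction (0) limma voom called 2 and leaving out 1 animal gave 0 to 3. For region in cKO every setting run gave 0. With the animal as a replicate block, 20 members were called in control, 0 in cKO and 0 in the interaction.

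Over all genes the counts moved in the same manner. In rostral cortex, 0 genes were called by edgeR, 371 by DESeq2, 920 by limma voom, 45 without the filter, 101 in the single fit over 12 libraries and 1058 without T6. In caudal cortex, 17 were called by edgeR, 468 by DESeq2, 178 by limma voom, 326 without the filter and 1 in the single fit. On summed counts, 41 were called by edgeR, 738 by DESeq2, 619 by limma voom, 315 without the filter, and 1 with sex as a covariate. In region in control, 2492 were called by edgeR and 78 in the single fit. In the interaction, 0 were called by edgeR, 14 by DESeq2, 137 by limma voom and 475 without T6. The causes were not tested.

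Of the single genes named, 441 values kept their side of the threshold, 30 no longer passed, 16 newly passed and 0 changed direction. With 3 animals per group, an exact permutation test of a single member could not go below p = 0.10. Members under 0.1 CPM per kb rest on few counts, so the depth limits what their differences can show.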

Other observations

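Summed over the classes, the ligands were at 22.6 to 26.4 CPM per kb in cKO caudal libraries and 28.7 to 33.5 CPM per kb in control caudal libraries, with no overlap. In rostral cortex they were at 12.8 to 33.4 CPM per kb in cKO and 23.4 to 26.5 CPM per kb in control libraries, the lowest being the library of T6. The R-spondins summed to 7.17 to 10.1 CPM per kb in cKO rostral and 4.24 to 5.15 CPM per kb in control rostral libraries, also with no overlap, and to 6.01 to 9.16 CPM per kb in cKO caudal and 7.12 to 7.42 CPM per kb in control caudal libraries. The Frizzled receptors were at 36.3 to 47.8 CPM per kb and the secreted inhibitors at 43.2 to 55.5 CPM per kb over all 12 libraries. These sums are descriptions with no test. Wnt7b was the largest single part of the ligand sum, and Rspo2 and Rspo3 together made up most of the R-spondin sum.

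Rspo2, the R-spondin with the highest level, was at 20.4, 37.7 and 16.6 CPM in cKO rostral libraries of T3, T6 and T80 and at 11.1, 15 and 15.7 CPM in control rostral libraries. Its highest value came from the T6 library with the high mitochondrial share, and the log2 fold change was 0.84 (SE 0.31, edgeR adjusted p = 0.486).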
